A study of Danio rerio with 4 samples.

Results

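The mitochondrial carriers of the slc25 family were examined in whole zebrafish larvae at 8 dpf, in *grwd1* crispants and in wt larvae. Members were the genes of the deposited count table whose zebrafish symbol begins with slc25a. There were 59 such genes among 32520 in all, under 50 distinct symbols. The symbol table gives 9 of these symbols to 2 gene IDs each, without the letter that separates zebrafish copies, so those 18 genes are named with their Ensembl ID. The crispant group held 2 libraries from larvae injected at the one-cell stage with Cas9 mRNA and 2 guides against the first and the last exon of *grwd1*, and the wt group held 2 libraries from wildtype larvae, whose injection status the labels do not give. Each group pooled 15 larvae. The crispants were the injected animals themselves and thus mosaic, so edited and unedited cells both contributed, and whole larvae mix all tissues. By the labels, injected larvae moved to the nursery did not survive. The comparison asks which transcripts differ when *grwd1*, a gene of large ribosomal subunit assembly, is disrupted in a study of congenital diarrhea.

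Carriers of this family sit mostly in the inner mitochondrial membrane and exchange solutes between the cytosol and the matrix. Each is built from a repeat of a short domain that carries a signature motif, and each is encoded in the nucleus, made in the cytosol and imported. Through them ADP, ATP and phosphate reach the site of ATP synthesis, and amino acids, organic acids, iron, nucleotides and cofactors cross the membrane. Substrates named here are those known from mammals unless stated otherwise.

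The counts summed to 15916216 to 18619802 per library, and the depths of both groups overlapped. *grwd1* (ENSDARG00000004806), the targeted gene, had 123 and 102 counts in the crispant libraries, against 390 and 439 in the wt libraries, a log2 fold change of -1.94 (standard error, SE, 0.18, edgeR adjusted p = 3.25e-14). Both crispant libraries thus lay below both wt libraries. Each log2 fold change sets crispants over wt, and a positive one means more reads in crispants. A gene passed where edgeR gave an adjusted p of 0.05 or less over the 20479 genes tested. CPM are reads of a gene per 1000000 of the scaled library size. Nothing in the labels ties the duplicates to separate pools of larvae, so the p-values speak of the spread between these duplicates, possibly a technical one.

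Of the 59 members, 54 passed the filter on low counts and were tested, and 5 did not. In crispants 3 members rose, 4 fell and 47 did not pass, so 13% of the tested members were called, against 16.4% of all genes tested. The higher members were 5.56% of those tested, against 8.98% of all genes, and the lower ones 7.41%, against 7.44%. The shares of members called lay near or below those of all genes, so the counts are no result about the family as such. The members that rose were *slc25a1* (ENSDARG00000076381), *slc25a10* (ENSDARG00000025074) and *slc25a27*, and those that fell were *slc25a3* (ENSDARG00000025566), *slc25a4*, *slc25a5* and *slc25a23a*. Of these, *slc25a27* passed the filter on low counts only through its crispant libraries, so its place in these counts already rested on a difference between the groups. Without crispant replicate 1, crispant replicate 2 or wt replicate 2, 1 member rose, and without either wt library 2 fell. With DESeq2, the tool of the study, 1 member was higher and 3 were lower, beside 5.92% and 5.44% of all genes. Over all genes, edgeR called 1839 higher and 1524 lower with TMM scaling, and 2355 higher and 1000 lower with library totals as the sole scaling.

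The median log2 fold change of the tested members was -0.06, beside 0.0046 for all genes tested. With library totals as the sole scaling it was 0.01, beside 0.0774 for all genes tested. The members' median thus lay below that of all genes under both scalings. With TMM, values below 0 were found for 34 of 54 members (63.0%) and for 49.5% of all genes. The libraries of the groups did not overlap for 11 members that were higher in crispants (20.4%, against 28.1% of all genes) and for 16 that were lower (29.6%, against 26.5%). The groups overlapped for the rest. Among the 47 members that did not pass, 6 had an unadjusted p under 0.05, namely *slc25a47b*, *slc25a46*, *slc25a3* (ENSDARG00000027424) and *slc25a28* with lower values in crispants and *slc25a24* and *slc25a36b* with higher ones.

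**Figure D1:**
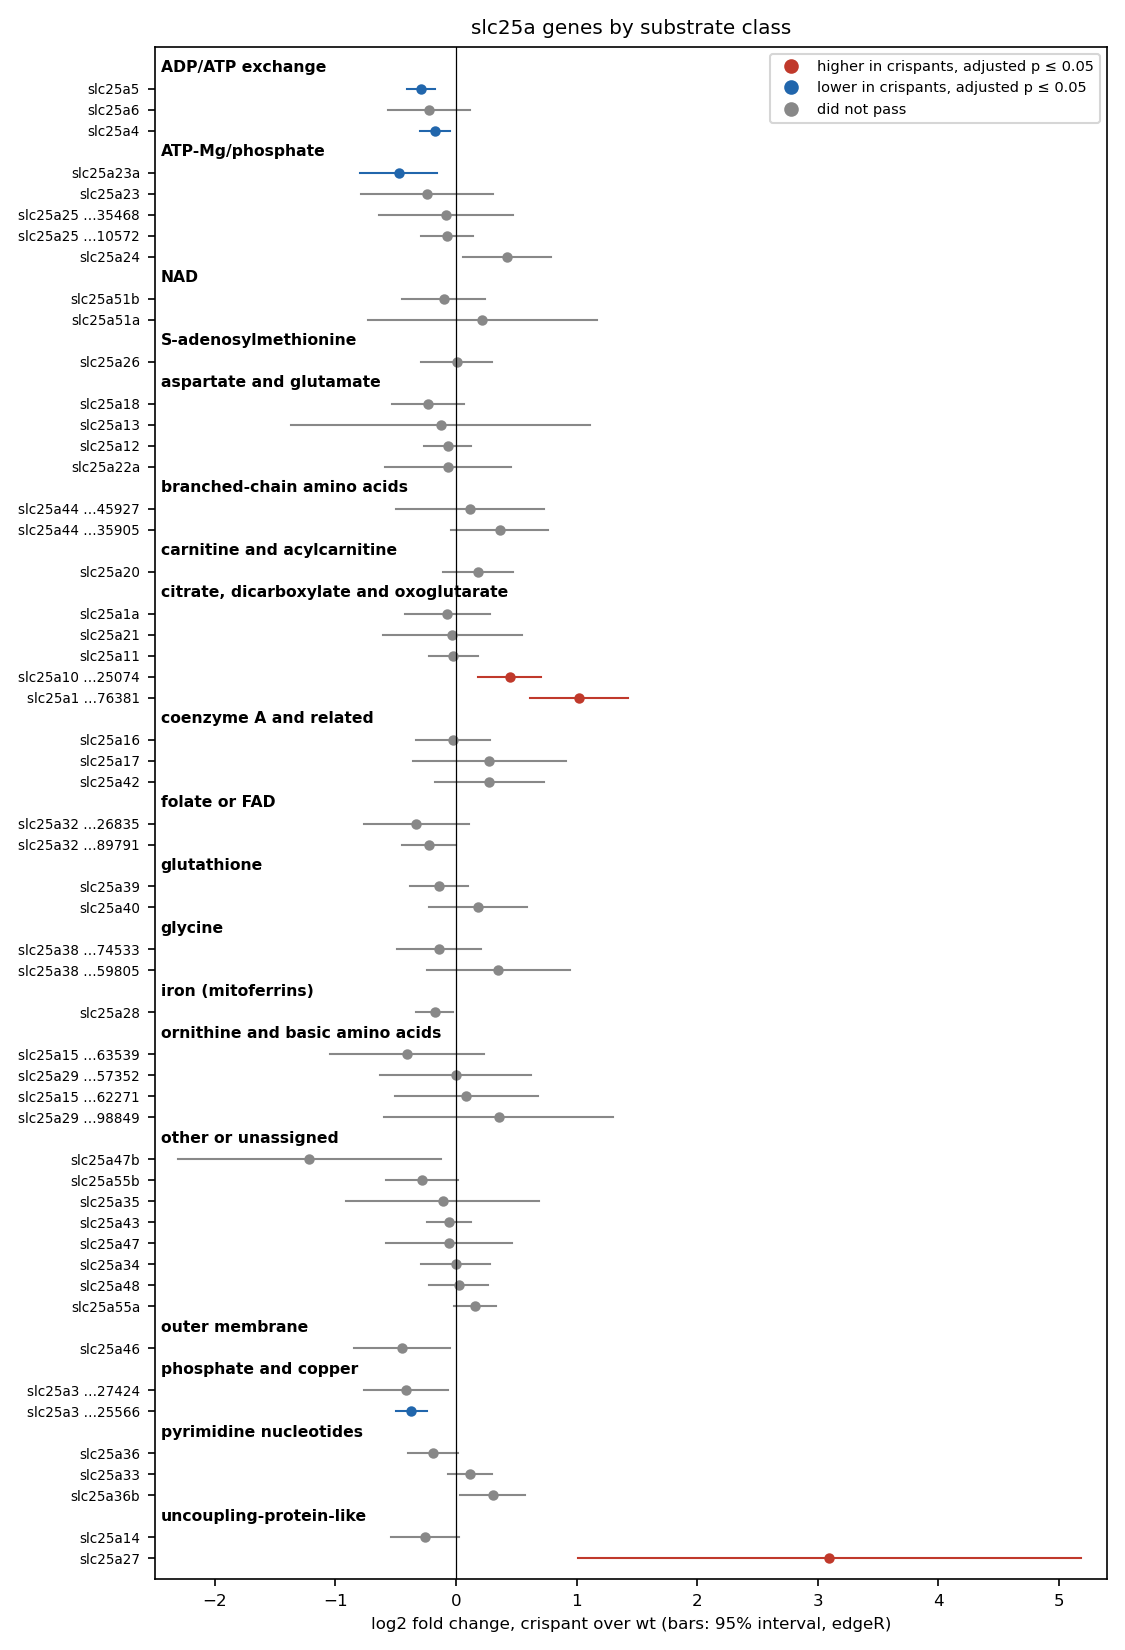
Log2 fold change, crispant over wt, of 53 of the 54 tested members by substrate class, with the 95% interval from edgeR as a bar and the last digits of the Ensembl ID where a symbol stands for 2 genes. Members that rose are red, those that fell blue and the 46 drawn that did not pass grey, and the narrow intervals belong to genes with many reads such as *slc25a5*, *slc25a4* and *slc25a3* (ENSDARG00000025566).

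**Figure D2:**
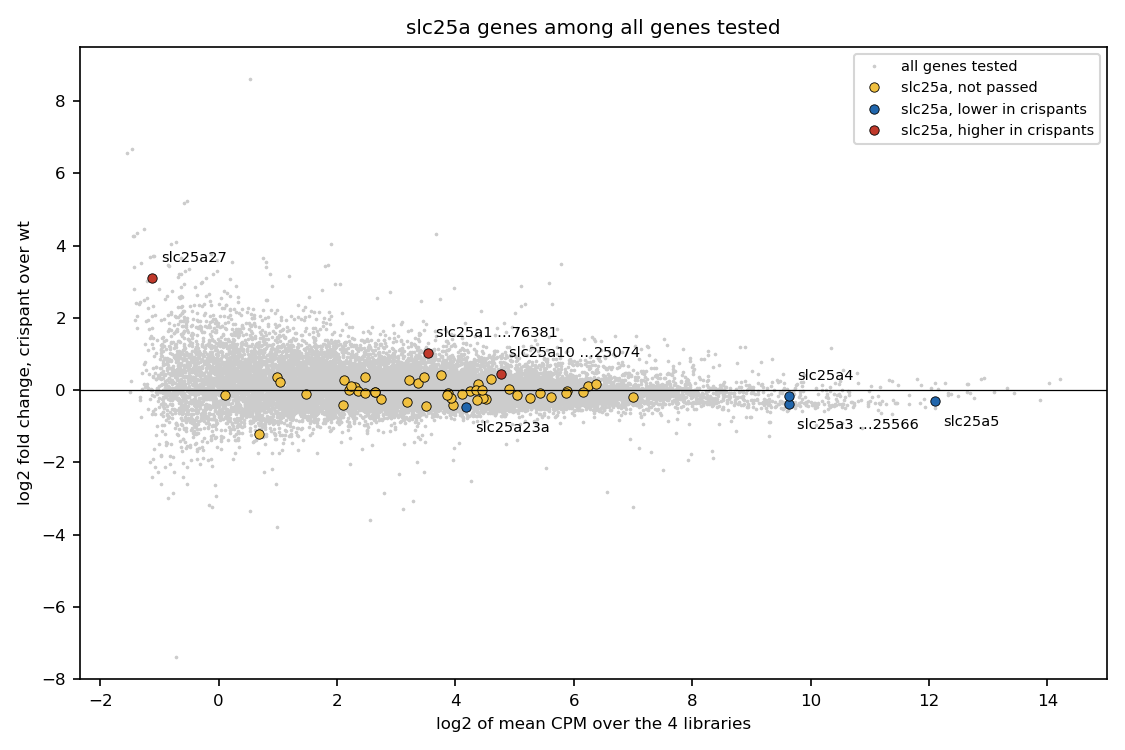
Log2 fold change, crispant over wt, against the log2 of the mean CPM over the 4 libraries, for all 20479 genes tested (grey) and for 53 tested members (coloured by call). The members with the most reads lie just below 0, and *slc25a27* stands at the low end of the count range with a log2 fold change of 3.10.

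Reads of the family came mainly from the carriers that feed ATP synthesis. *slc25a5*, *slc25a4* and *slc25a3* (ENSDARG00000025566) together held 82.6% and 83.3% of all slc25a CPM in the crispant libraries, against 85.6% and 85.1% in the wt libraries. These shares are of reads and not per transcript length. Over all 59 members the summed CPM was 6458 ± 292 in crispants and 7662 ± 249 in wt larvae (SD, n = 2 each), a log2 ratio of -0.25, or -0.17 under library totals. The sum of the other 56 members was 1087 and 1116 CPM in the crispant libraries, against 1131 and 1118 CPM in the wt libraries. That small difference turned round under library totals, with 1129 and 1128 CPM in the crispant libraries, against 1098 and 1094 CPM in the wt libraries. The median log2 fold change of all genes tested moved up as well, from 0.0046 with TMM to 0.0774 with library totals. The change of sign is thus no reversal particular to these members. The lower family sum lay mainly in *slc25a5*, *slc25a4* and *slc25a3* (ENSDARG00000025566). In bulk samples such as these, fewer cells of a type and less RNA per cell cannot be told apart.

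All 3 ADP/ATP carrier genes had lower values in crispants, and 2 of them passed the test. Of all genes 7.44% were lower, and 33.6% of those with a mean CPM of 100 or more. The 3 genes are too few to read this as a result about the class. These carriers export ATP from the matrix in exchange for cytosolic ADP. *slc25a5* had 3776 and 4070 CPM in the crispant libraries, against 4926 and 4686 CPM in the wt libraries. Both crispant libraries lay below both wt libraries, and the transcript fell with a log2 fold change of -0.29 (SE 0.06, edgeR adjusted p = 9.52e-05), which is 18.4% below wt. Without wt replicate 1 its value was -0.26 and did not pass (edgeR adjusted p = 0.0860). *slc25a4*, the carrier gene of heart and skeletal muscle in mammals, had 729 and 758 CPM in the crispant libraries, against 853 and 825 CPM in the wt libraries. Its groups did not overlap either, and its log2 fold change was -0.17 (SE 0.06, edgeR adjusted p = 0.0470), and it passed in 6 of 12 alternatives. Its call was lost under library totals (-0.10, edgeR adjusted p = 0.222), with at least 10 counts in every library, with the replicate block, and without crispant replicate 1, wt replicate 1 or wt replicate 2. *slc25a6* held far fewer reads, with 13.01 and 15.04 CPM in the crispant libraries, against 16.1 and 16.7 CPM in the wt libraries. It did not pass (-0.23, 95% interval -0.57 to 0.11), and this interval holds the values of both other genes. Of 22 skeletal muscle markers, 11 rose and 0 fell by edgeR (2 were lower at an unadjusted p under 0.05, 1 with DESeq2 and 2 with limma-voom). Beside them, 8.98% of all genes rose, and 11.8% of those with a mean CPM of 100 or more. The summed CPM of the markers was 92610 to 96060 in crispants and 86410 to 86650 in wt larvae, opposite in direction to *slc25a4*. Single markers were mixed, with 16 above 0 and 6 below. Those below included *ckmb* (-0.14) and *tnni2* (ENSDARG00000029069, -0.16). Several listed genes, some of which rose, are copies under the symbol *tnni2*. The marker with the most reads, *myhz1.1*, held 21270 and 20710 CPM in the crispant libraries, against 16020 and 18160 CPM in the wt libraries. *actc1b* held 16700 and 18770 CPM in the crispant libraries, against 16240 and 14910 CPM in the wt libraries. The part of muscle in the values of these carriers was not tested.

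The phosphate carrier brings phosphate into the matrix for ATP synthesis and also carries copper. *slc25a3* (ENSDARG00000025566) had 660 and 721 CPM in the crispant libraries, against 929 and 857 CPM in the wt libraries. The groups did not overlap, and the gene fell with a log2 fold change of -0.37 (SE 0.06, edgeR adjusted p = 7.76e-06), 22.7% below wt. It passed in all 12 alternatives, as no other member did. The second copy, *slc25a3* (ENSDARG00000027424), had 15.5 and 11.1 CPM in the crispant libraries, against 19.3 and 16.3 CPM in the wt libraries. Its value of -0.42 was similar but less precise (95% interval -0.76 to -0.07) and did not pass (edgeR adjusted p = 0.0947). This copy stood at -0.68 without crispant replicate 1, -0.21 without crispant replicate 2, -0.29 without wt replicate 1 and -0.54 without wt replicate 2.

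Genes with many reads were lower in crispants more often than others. Of the 1422 genes with a mean CPM of 100 or more, 33.6% were lower and 11.8% higher in crispants, against 5.49% and 8.77% of the genes with fewer reads. Of the 4 members with such a mean CPM, *slc25a5*, *slc25a4* and *slc25a3* (ENSDARG00000025566) fell, and *slc25a28* had -0.18 and did not pass. Of the 50 members tested below that level, 1 fell and 3 rose. The level of 100 CPM was chosen after the values were seen. These shares hold for TMM scaling and were not counted under library totals. There edgeR called 1000 of all genes lower and 2355 higher, against 1524 and 1839 with TMM.

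Of the carriers of citrate, dicarboxylates and oxoglutarate, 2 of 5 tested genes rose, where 8.98% of all genes did. The genes are too few to read this share as a result about the class. *slc25a1* encodes the citrate carrier, which exports citrate from the matrix as a source of carbon for fatty acids and sterols. Its copy ENSDARG00000076381 had 18.9 and 12.2 CPM in the crispant libraries, against 7.05 and 8.29 CPM in the wt libraries. Both crispant libraries were higher, replicate 1 more so, and the gene rose with a log2 fold change of 1.02 (SE 0.20, edgeR adjusted p = 9.44e-05). Without crispant replicate 1 the value was 0.67 and did not pass (edgeR adjusted p = 0.0624), while it passed in the other 11 of 12 alternatives. The copy *slc25a1a* had 15.9 and 12.6 CPM in the crispant libraries, against 16.1 and 14 CPM in the wt libraries. Its groups overlapped, and its value was -0.07 (95% interval -0.42 to 0.28).

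*slc25a10* encodes the dicarboxylate carrier, which exchanges malate and succinate for phosphate. Its copy ENSDARG00000025074 had 30.5 and 32.4 CPM in the crispant libraries, against 23.1 and 23.1 CPM in the wt libraries. The gene rose with a log2 fold change of 0.44 (SE 0.13, edgeR adjusted p = 0.00993), and replicates within each group were close. The call was lost with DESeq2 (adjusted p = 0.0578), without crispant replicate 2 (0.0891), without wt replicate 1 (0.0596) and without wt replicate 2 (0.0597), where the value lay between 0.39 and 0.44. The oxoglutarate carrier gene *slc25a11* (-0.02, 95% interval -0.22 to 0.18), which serves the malate-aspartate shuttle, and the oxodicarboxylate carrier gene *slc25a21* (-0.03, 95% interval -0.61 to 0.55) did not pass.

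Markers of liver and gut were mostly higher in the same crispant libraries, where 8.98% of all genes rose and 7.44% fell. Of 17 hepatocyte markers, 9 rose and 1 fell, with a median of 0.21 and a summed CPM of 4313 to 4523 in crispants and 3510 to 3541 in wt larvae. Of 19 markers of absorptive enterocytes, 15 rose and 2 fell, with a median of 0.86 and a summed CPM of 3738 to 3831 in crispants and 2149 to 2199 in wt larvae. *apoa1a*, which fell (-0.33), stands on both lists and in both sums, so the lists are not fully separate. Exocrine pancreas markers went down, with 8 of 13 lower and 1 higher, and a summed CPM of 4862 to 5285 in crispants and 7726 to 7825 in wt larvae. All listed genes of these tissues that matched the table were detected, and their part in the values of *slc25a1* and *slc25a10* was not tested.

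The ATP-Mg/phosphate carriers adjust the adenine nucleotide pool of the matrix under the control of calcium. Of 5 such genes tested, 1 fell (20%, against 7.44% of all genes), and 5 genes are too few to read this as a result about the class. *slc25a23a* had 15.6 and 14.8 CPM in the crispant libraries, against 18.8 and 23.5 CPM in the wt libraries. Its log2 fold change was -0.48 (SE 0.16, edgeR adjusted p = 0.0277), and the wt libraries differed from each other more than the crispant libraries did. The value was -0.30 without wt replicate 2 (edgeR adjusted p = 0.406), and the call was also lost with DESeq2 (0.113), under library totals, and without either crispant library. The gene with the symbol *slc25a23* had 8.64 and 3.54 CPM in the crispant libraries, against 8.58 and 6.04 CPM in the wt libraries. Its groups overlapped, and its value was -0.24 (edgeR adjusted p = 0.629) with all libraries. It was -1.04 without crispant replicate 1, 0.24 without crispant replicate 2, 0.02 without wt replicate 1 and -0.48 without wt replicate 2. *slc25a24* went the other way, with 13.9 and 16.9 CPM in the crispant libraries, against 11.3 and 11.6 CPM in the wt libraries, and did not pass (0.42, edgeR adjusted p = 0.107). Both copies of *slc25a25* lay near 0, at -0.08 each.

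**Figure D3:**
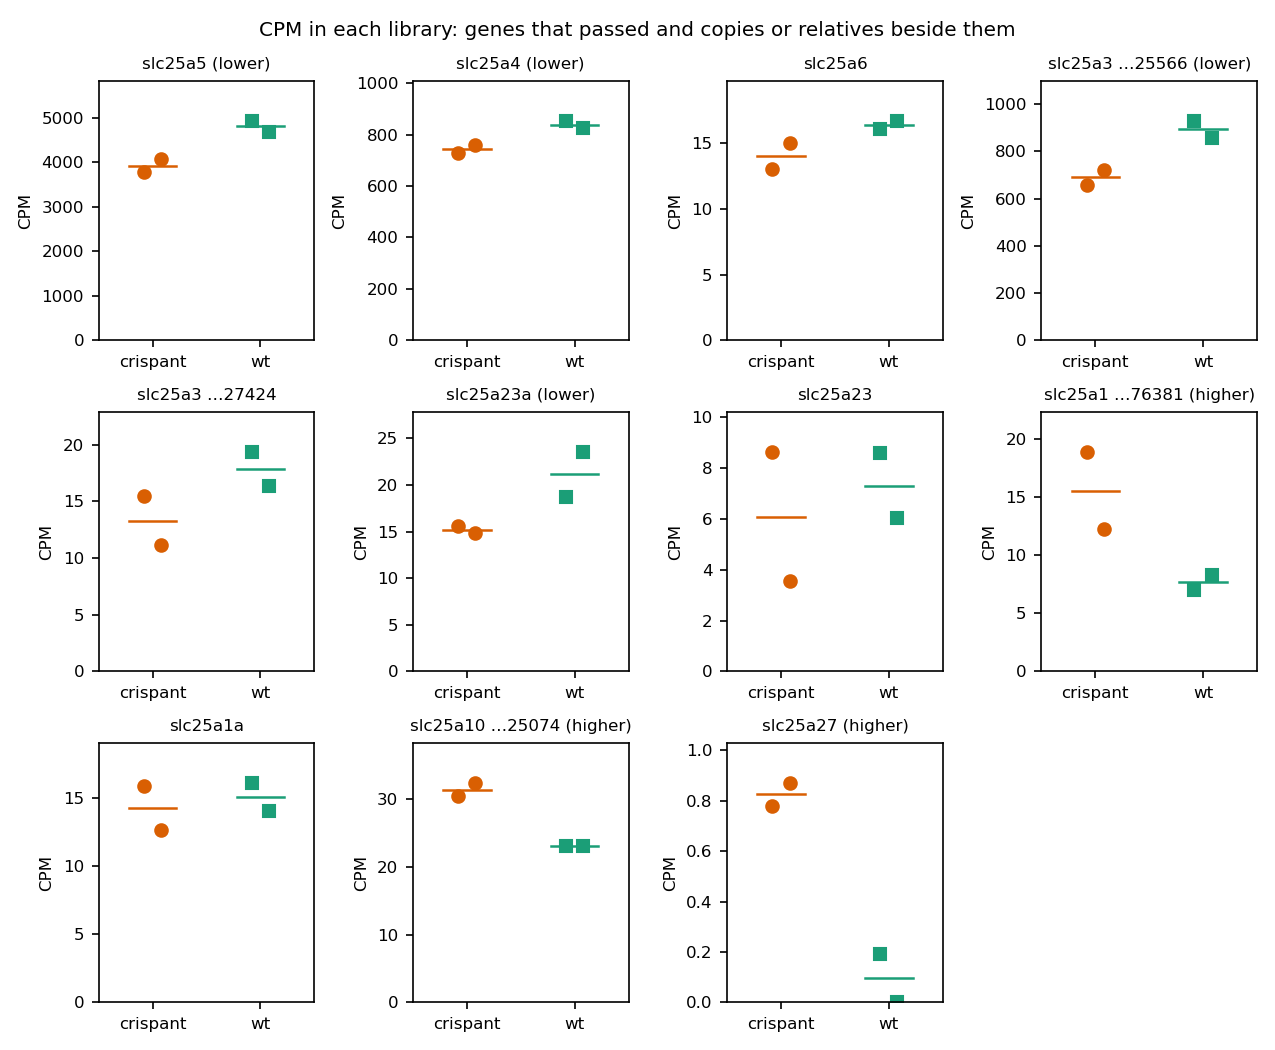
CPM in each library (points) with the group mean (line), crispant left and wt right, for the 7 members that passed and for copies or relatives of them, each panel with its own linear axis from 0. The groups do not overlap in the panels marked higher or lower, and they overlap for *slc25a1a* and *slc25a23*.

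Of the carriers that resemble uncoupling proteins, *slc25a27* is expressed mainly in the brain in mammals. It had 15 and 14 counts in the crispant libraries, against 3 and 0 in the wt libraries. Scaled to library size, the summed counts of 29 in crispants and 3 in wt larvae gave a ratio of 9.26 (95% exact interval 2.87 to 47.5, for counting error only). edgeR gave a log2 fold change of 3.10 (SE 1.05, adjusted p = 0.0303). It passed the filter only through its crispant libraries, so its entry into the test already rested on a difference between the groups. DESeq2 gave it no adjusted p, and it was left out where at least 10 counts in every library were required. The call was lost without the low-count filter (edgeR adjusted p = 0.0912), without crispant replicate 1 (0.172), without crispant replicate 2 (0.213) and without wt replicate 2, where the value was 2.06 (0.377). *slc25a14*, its relative, had 21.7 and 19.9 CPM in the crispant libraries, against 26.3 and 23.6 CPM in the wt libraries, and did not pass (-0.26, 95% interval -0.54 to 0.02). Markers of neurons went in the direction opposite to *slc25a27*. Of 20, 13 fell (65.0%, against 7.44% of all genes) and 0 rose by edgeR (also 0 at an unadjusted p under 0.05, with DESeq2 and with limma-voom). Their summed CPM was 2273 to 2292 in crispants and 2873 to 2880 in wt larvae. Of 22 photoreceptor markers, 13 fell and 0 rose by edgeR (1 was higher at an unadjusted p under 0.05, 0 with DESeq2 and 0 with limma-voom), with 1574 to 1657 CPM in crispants and 2337 to 2444 CPM in wt larvae. Their part in the values of the carriers was not tested.

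The carriers of amino acids did not pass, since edgeR called 0 (also 0 at its unadjusted p under 0.05, with DESeq2 and with limma-voom). The aspartate and glutamate group, which supplies aspartate to the cytosol and glutamate to the matrix, had values between -0.23 for *slc25a18* and -0.06 for *slc25a22a* in 4 genes tested. Under library totals *slc25a12* (0.0037) and *slc25a22a* (0.0115) stood just above 0, and *slc25a18* did so without wt replicate 2 (0.0428). *slc25a12*, which held the most reads of them, stood at -0.07 (95% interval -0.26 to 0.13), with 54.6 and 59.5 CPM in the crispant libraries, against 63.1 and 56.6 CPM in the wt libraries. The 4 genes for ornithine and basic amino acids ranged between -0.40 and 0.35, and their intervals were wide. The copies of *slc25a44*, a carrier of branched-chain amino acids, had 0.36 (ENSDARG00000035905) and 0.12 (ENSDARG00000045927), with 0.09 for the first without crispant replicate 2 and -0.18 for the second without crispant replicate 1. Those of *slc25a38*, the glycine carrier that serves heme synthesis, had 0.35 (ENSDARG00000059805) and -0.14. The copy with the higher value rested on crispant replicate 2 (-0.31 without it), with 3.90 and 8.51 CPM in the crispant libraries, against 5.44 and 4.23 CPM in the wt libraries.

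The carnitine and acylcarnitine carrier *slc25a20*, which admits fatty acids for oxidation, had 20.6 and 23.5 CPM in the crispant libraries, against 19.1 and 19.6 CPM in the wt libraries. The groups did not overlap, yet the difference did not pass (0.18, 95% interval -0.11 to 0.48). *slc25a28*, which encodes mitoferrin 2, an importer of iron, had 118 and 123 CPM in the crispant libraries, against 140 and 132 CPM in the wt libraries, and did not pass (-0.18, edgeR adjusted p = 0.116). *slc25a46*, a member of the outer membrane that acts in mitochondrial dynamics, had 8.38 and 10.9 CPM in the crispant libraries, against 12.2 and 14.1 CPM in the wt libraries. It did not pass (-0.45, edgeR adjusted p = 0.119), and its value lay between -0.65 and -0.26 over 12 alternatives.

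Carriers of pyrimidine nucleotides, folate or FAD, glutathione, NAD, S-adenosylmethionine and coenzyme A did not pass. The 3 genes of pyrimidine nucleotide carriers had 0.11 (*slc25a33*), -0.19 (*slc25a36*) and 0.30 (*slc25a36b*), of which *slc25a36b* passed with library totals (0.38, edgeR adjusted p = 0.0475). Both copies of *slc25a32*, a carrier of folate or FAD, lay below 0 (-0.33 and -0.22), and the groups of each did not overlap. The glutathione carriers *slc25a39* and *slc25a40* had -0.14 and 0.19, the NAD carriers *slc25a51a* and *slc25a51b* had 0.22 and -0.10, and *slc25a26*, the carrier of S-adenosylmethionine, had 0.0056 (95% interval -0.29 to 0.30). Of the genes for coenzyme A and related substrates, *slc25a16* had -0.02, *slc25a17* 0.28 and *slc25a42* 0.28. Several of these values turned round without 1 library. Those of the coenzyme A group were *slc25a16* (0.03 without crispant replicate 2), *slc25a17* (-0.07 without crispant replicate 1) and *slc25a42* (-0.05 without crispant replicate 2). The others were *slc25a51a* (-0.56 without crispant replicate 1), *slc25a51b* (0.29 without wt replicate 2) and *slc25a26* (-0.06 without wt replicate 2). At an unadjusted p under 0.05 edgeR gave 1 of these genes, *slc25a36b*, and DESeq2 and limma-voom called 0.

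Among the 8 members of other or unassigned substrate, *slc25a47b* had the lowest value of all tested members. *slc25a47* is a liver carrier in mammals. The copy *slc25a47b* had 20 and 14 counts in the crispant libraries, against 33 and 43 in the wt libraries. The libraries did not overlap, but at this depth the difference did not pass (-1.22, 95% interval -2.31 to -0.13, edgeR adjusted p = 0.125). The other 7 ranged between -0.28 for *slc25a55b* and 0.16 for *slc25a55a*, and *slc25a34* (-0.0015) and *slc25a48* (0.02) were close to 0.

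Copies of a carrier were set side by side in each library, since a ratio within a library does not depend on its scaling. There were 13 pairs with both copies tested, from 13 carriers. The log2 ratio of the copies did not overlap between the groups in 5 pairs. Full separation of 2 against 2 libraries has an exact two-sided permutation p of 0.333, so this count is no result about the copies, and the values are a description. *slc25a1* (ENSDARG00000076381) over *slc25a1a* had log2 ratios of 0.25 and -0.04 in the crispant libraries, against -1.19 and -0.76 in the wt libraries. The copies thus held similar reads in crispants, whereas *slc25a1a* held more in wt larvae. *slc25a47* over *slc25a47b* had log2 ratios of 2.69 and 2.65 in the crispant libraries, against 1.67 and 1.34 in the wt libraries. *slc25a55a* over *slc25a55b* had 2.13 and 2.36 in the crispant libraries, against 1.69 and 1.92 in the wt libraries. In this pair *slc25a55a* held more reads in all libraries, and by a wider margin in crispants. *slc25a36* over *slc25a36b* had 0.83 and 0.68 in the crispant libraries, against 1.15 and 1.34 in the wt libraries. The fifth pair was *slc25a15*, with 0.59 and 0.29 in the crispant libraries, against -0.28 and 0.24 in the wt libraries, for ENSDARG00000062271 over ENSDARG00000063539. The 2 copies of *slc25a3* kept overlapping ratios, with 5.42 and 6.02 in the crispant libraries, against 5.59 and 5.72 in the wt libraries. Levels of similar copies are uncertain where reads could be assigned to either.

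**Figure D4:**
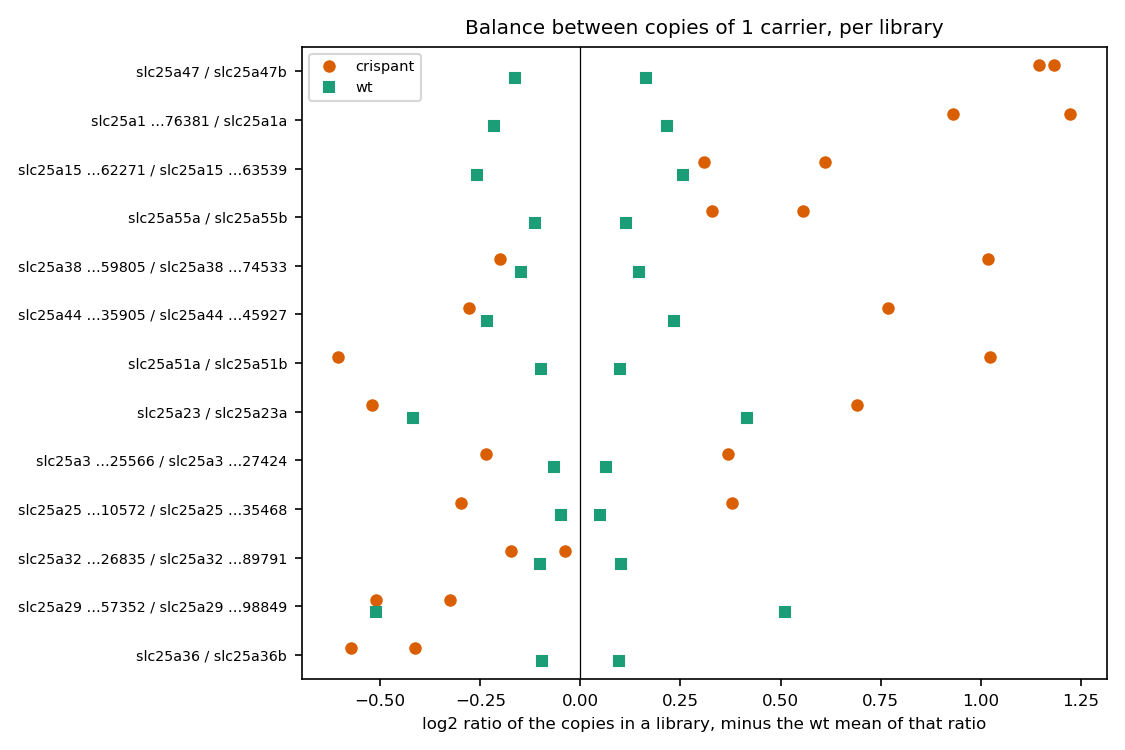
Log2 ratio of the CPM of 2 copies of a carrier in each library, minus the wt mean of that ratio, for 13 pairs, with crispant libraries as circles and wt libraries as squares. In 5 pairs the crispant libraries lie outside the wt libraries on one side, most widely for *slc25a47* over *slc25a47b* and *slc25a1* (ENSDARG00000076381) over *slc25a1a*.

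The 5 members below the filter were close to the limit of detection. *slc25a37* encodes mitoferrin 1, which in zebrafish supplies iron for heme in red blood cells. It had 30 and 6 counts in the crispant libraries, against 5 and 8 in the wt libraries, and crispant replicate 1 alone was high. Of 10 erythroid markers tested, 1 fell (10.0%, against 7.44% of all genes) and 0 rose by edgeR (1 was higher at an unadjusted p under 0.05, 0 with DESeq2 and 0 with limma-voom). The summed CPM of the 13 matched markers overlapped, with 76.7 and 92.8 in the crispant libraries, against 86.7 and 70.5 in the wt libraries. Most of it came from *hbae3*, with 51.4 and 62.0 CPM in the crispant libraries, against 57.7 and 43.7 CPM in the wt libraries. The globin gene *hbbe3* had 0 counts in all libraries, and the listed globins *hbbe1.1*, *hbbe1.2*, *hbbe1.3* and *hbbe2* were not found by symbol. The part of red cells in the *slc25a37* counts was not tested. *slc25a24l* had 6 and 2 counts in the crispant libraries, against 2 and 12 in the wt libraries. *slc25a22b* had 0 and 5 counts in the crispant libraries, against 0 and 3 in the wt libraries. The further copy of *slc25a10* (ENSDARG00000097890) had 5 and 0 counts in the crispant libraries, against 4 and 4 in the wt libraries, and that of *slc25a1* (ENSDARG00000080000) had 1 and 1, against 2 and 2 in the wt libraries. These genes were not tested, and their counts are given as a description.

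Genes that work with the carriers were taken from 7 lists. Precursors of the carriers pass through receptors and a pore of the outer membrane and are led by small chaperones to an insertase of the inner membrane. Of 18 genes of this import route, 3 fell and 0 rose by edgeR (also 0 at an unadjusted p under 0.05, with DESeq2 and with limma-voom), with a median of -0.10. The share that fell was 16.7%, against 7.44% of all genes, and 16.4% of all genes were called in either direction. The 3 calls are too few to read this as a result about the route. *tomm20*, an import receptor, had 43.2 and 47.3 CPM in the crispant libraries, against 56.7 and 60.6 CPM in the wt libraries (log2 fold change -0.38, SE 0.10, edgeR adjusted p = 0.00479), and its call was lost without crispant replicate 1 or wt replicate 2. The others that fell were *tomm22* (-0.44), also a receptor, whose call was lost without crispant replicate 2 or wt replicate 1, and *tomm5* (-0.31), a small subunit of the pore, whose call was lost in 6 of 12 alternatives.

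Of 22 other mitochondrial solute transporters tested, 2 rose and 4 fell (27.3% called, against 16.4% of all genes), with a median of 0.14. Over the list, 16 values lay above 0 and 6 below. All 3 porin genes of the outer membrane fell, and 3 genes are too few to read this as a result about porins. Of all genes 7.44% were lower, and 33.6% of those with a mean CPM of 100 or more. *vdac2* had 1425 and 1498 CPM in the crispant libraries, against 1838 and 1811 CPM in the wt libraries (-0.32, SE 0.06, edgeR adjusted p = 3.59e-05), and it passed in all 12 alternatives. *vdac1* (-0.28) lost its call without wt replicate 1, and *vdac3* (-0.23) without either wt library or crispant replicate 1. *micu2*, a regulator of mitochondrial calcium uptake, rose by 0.65 on the log2 scale, with 19.8 and 18.9 CPM in the crispant libraries, against 11.5 and 13.1 CPM in the wt libraries, and its call was lost without wt replicate 1 (0.56).

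Of 4 family members whose symbols lie outside the slc25a naming, the uncoupling protein gene *ucp2* fell and 0 rose by edgeR (also 0 at an unadjusted p under 0.05, with DESeq2 and with limma-voom). By comparison, 7.44% of all genes were lower, and 33.6% of those with a mean CPM of 100 or more. The 4 genes are too few to read this call as a result about the list. *ucp2* had 251 and 267 CPM in the crispant libraries, against 305 and 309 CPM in the wt libraries (-0.25, SE 0.07, edgeR adjusted p = 0.00692). Its groups did not overlap, and its call was lost under library totals (-0.17) and without crispant replicate 1 or either wt library.

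In fatty acid oxidation and its carnitine route, 2 of 21 rose and 0 fell by edgeR (also 0 at an unadjusted p under 0.05, with DESeq2 and with limma-voom), with a median of 0.08. The share that rose was 9.52%, against 8.98% of all genes, and 16.4% of all genes were called in either direction. *acaa2*, a thiolase, had 31.2 and 34.9 CPM in the crispant libraries, against 20.2 and 23.3 CPM in the wt libraries (0.60, SE 0.13, edgeR adjusted p = 0.000379), and *hadha* (0.39) lost its call with DESeq2 and without crispant replicate 2 or wt replicate 1 (0.27). Of 12 genes of the malate-aspartate and glycerol phosphate shuttles, 3 rose and 1 fell (33.3% called, against 16.4% of all genes), with a median of 0.17. *gpd1c*, a glycerol phosphate dehydrogenase gene, had 22.8 and 30.2 CPM in the crispant libraries, against 15.9 and 16.9 CPM in the wt libraries (0.69), and its call was lost without crispant replicate 2 (0.47). *mdh2*, mitochondrial malate dehydrogenase, had 454 and 505 CPM in the crispant libraries, against 589 and 568 CPM in the wt libraries (-0.27, SE 0.07, edgeR adjusted p = 0.00170), and its call was lost without wt replicate 1.

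Of 23 genes of heme synthesis and iron-sulfur assembly, 1 fell and 0 rose by edgeR (3 were higher at an unadjusted p under 0.05, 0 with DESeq2 and 0 with limma-voom), with a median of -0.03. The share that fell was 4.35%, against 7.44% of all genes, and 16.4% of all genes were called in either direction. The gene that fell was *alas1*, the first enzyme of heme synthesis outside red cells. It had 180 and 213 CPM in the crispant libraries, against 306 and 260 CPM in the wt libraries (-0.53, SE 0.08, edgeR adjusted p = 9.32e-08), and it passed in all 12 alternatives. Of 21 genes of the urea cycle and of arginine, proline and ornithine metabolism, 6 rose and 2 fell (38.1% called, against 16.4% of all genes), with a median of 0.13. *gls2* (ENSDARG00000069095), a glutaminase gene, had 36.3 and 29 CPM in the crispant libraries, against 23.9 and 20.7 CPM in the wt libraries (0.55), and its call was lost without crispant replicate 1 (0.38). *otc*, which joins ornithine and carbamoyl phosphate, rose by 1.08 on the log2 scale and lost its call without crispant replicate 1 (0.97). *glul* (ENSDARG00000099776), glutamine synthetase, had 496 and 512 CPM in the crispant libraries, against 713 and 713 CPM in the wt libraries (-0.50, SE 0.06, edgeR adjusted p = 4.18e-09), and it passed in all 12 alternatives.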

How the data were processed

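RNA from whole larvae was sequenced in 2 libraries per group. The deposited values are raw read counts per gene, which the authors made with Trimmomatic 0.39, HISAT2 on GRCz11 and featureCounts. For the release of the GRCz11 annotation, for strand and for multi-mapping reads the settings were not given in the sources used here, which leaves near-identical copies and overlapping genes uncertain. The libraries were prepared with a stranded total RNA kit. Of 32667 lines, 147 repeated another line exactly and were dropped. The name table paired 29201 of 32520 gene IDs (89.8%) with a symbol, shown in lower case. No unused count column was present.

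Counts were filtered with filterByExpr, scaled with TMM and compared with edgeR 4.0.16 (quasi-likelihood test, R 4.3.3), with genotype as the single term and Benjamini-Hochberg adjustment over all genes tested. DESeq2 1.42.0 and limma 3.58.1 (voom) were alternatives. Intervals are at 95%. The chi-square of counts between duplicates, divided by the degrees of freedom, was 5.12 in crispants and 4.57 in wt larvae, above sampling noise. Values in every library were given for members that passed, for the 3 with the most reads and for copies of a member that passed; in lists the gene with the smallest p in each direction was named, and further names were picked after their values were seen. Members, lists and tests were chosen with earlier results of these data known. The value of 1 tested member is not reported here, and sequences of the members are not shown here.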

Additional observations from a re-analysis of the deposited data

How the results depend on the processing

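With DESeq2, 1 member was higher, 1107 of all genes were higher and 8 genes of the 7 lists were higher, where edgeR gave 3, 1839 and 13. At an adjusted p of 0.01, 2 members were lower, 1193 of all genes were higher and 938 lower, and 8 genes of the lists were higher. Under library totals alone, 2 members and 1000 of all genes were lower. The median of the members was then 0.0132, beside 0.0774 for all genes tested. Without 1 library at a time, 1 to 2 members were higher and 2 to 4 lower, 1266 to 1375 of all genes were higher and 935 to 1327 lower, 6 to 12 genes of the lists were higher and 6 to 11 lower, and the median was -0.1075 to -0.0101. The lowest of these counts of members came without crispant replicate 1, crispant replicate 2 or wt replicate 2 (1 higher) and without wt replicate 1 or wt replicate 2 (2 lower). With the replicate block, 3 members were higher and 3 lower, and *slc25a4* lost its call (adjusted p = 0.119 from edgeR). Libraries share only a number in the labels, and the deviations of same-numbered libraries correlated at -0.0156. *grwd1* kept its direction and call throughout. The members called differed between settings, so equal counts need not stand for the same members. Over single members, 24 of 89 values of those that passed lost the call, none changed sign, and 3 of 610 values of the others gained it. With 2 libraries per group, differences in members of few counts were not resolved.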
